A study of Arabidopsis thaliana with 20 samples.

Results

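Seed oil synthesis genes are described here as 9 genes picked by gene identifier out of 37184 genes in the count tables, with no measured value entering the choice. They were *WRI1* (AT3G54320), *FAE1* (AT4G34520), *FAD2* (AT3G12120), *FAD3* (AT2G29980), *DGAT1* (AT2G19450, also called *TAG1*), *PDAT1* (AT5G13640), *FAB2* (AT2G43710, also called *SSI2*), *FAB1* (AT1G74960) and *ROD1* (AT3G15820). They were measured by 3'RNA-seq of Arabidopsis thaliana siliques collected 13 to 20 days after pollination, from WT (the Col-0 accession, 4 libraries) and *msh-1* (4 libraries) plants, all kept in a greenhouse in long days. *msh-1* is 1 T-DNA insertion line, in which the transcriptional unit of the lncRNA *MUSHER* beside the dormancy gene *DOG1* is disrupted, and no other allele was sequenced by this method. The labels give siliques, whereas the study's text on these libraries speaks of freshly harvested seeds, a later stage, and the libraries are bulk RNA, in which fewer cells of a type and less RNA per cell cannot be told apart.

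Arabidopsis stores its seed oil as triacylglycerol in the embryo. Fatty acids are built in the plastid, exported to the endoplasmic reticulum, desaturated further on phosphatidylcholine or elongated, and then joined to glycerol. WRI1, an AP2-type transcription factor, is known for switching on glycolysis and plastid fatty acid synthesis during seed filling. FAB1 (a ketoacyl-ACP synthase that lengthens palmitate) and FAB2 (stearoyl-ACP desaturase, which makes oleate) act in the plastid. FAD2 and FAD3 act one after the other in the endoplasmic reticulum, FAD2 turning oleate into linoleate and FAD3 turning linoleate into alpha-linolenate. FAE1 starts the elongation to very long chains, ROD1 moves chains between phosphatidylcholine and diacylglycerol, and DGAT1 and PDAT1 carry out the last acylation.

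The WT libraries held 959004 to 2498295 counts each and the *msh-1* libraries 2590800 to 6500907. Every *msh-1* library was therefore deeper than every WT library, and depth and genotype cannot be told apart. *MUSHER* was not analysed here, so the genotypes were checked on *DOG1* (AT5G45830), whose level was 36.2 to 48.5 CPM over the WT libraries and 20.7 to 23.4 CPM over the *msh-1* libraries (CPM are counts scaled to library size with TMM factors). 11 embryo storage markers summed to between 85038 and 92267 CPM in WT and between 79235 and 92287 CPM in *msh-1*, and none was at 0. The sum rests mostly on *EM6*, *CRA1* and *OLEO1*, and 8 of the 11 had a negative log2 fold change, with the 2S albumin gene *SESA4* called lower in *msh-1* (-0.73, edgeR adjusted p = 0.0457). 6 silique wall markers summed to between 5.48 and 23.1 CPM in WT and between 7.54 and 14.5 CPM in *msh-1*, with *IND* at 0 in all 8 libraries. 8 seed coat markers summed to between 115.3 and 131.5 CPM in WT and between 109.8 and 133.4 CPM in *msh-1*, with *TT2* at 0 throughout. That sum is mostly *SBT1.7*, while *MUM2* averaged 9.73 CPM over the WT and 1.92 CPM over the *msh-1* libraries (log2 fold change -2.78, edgeR adjusted p = 0.121). WT replicate 4 and *msh-1* replicate 1, which earlier results of these data set apart, are also left out below where a result rests on them.

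Of the 9 genes, *FAD3* had more transcripts in *msh-1* than in WT in every library, by 2.30-fold in the main edgeR fit. It missed the threshold in that fit of all 8 libraries (adjusted p = 0.0654), while DESeq2 on the same libraries called it (adjusted p = 0.00255). *FAD2*, *DGAT1*, *PDAT1* and *FAB2* were measured well enough for a test, and none of them passed it. *WRI1*, *FAE1*, *FAB1* and *ROD1* were at or near the floor of detection in both genotypes. Thus 5 of the 9 genes passed the filter on low counts and 0 of these 5 were called by edgeR's quasi-likelihood test (threshold of 0.05 on the p adjusted by Benjamini-Hochberg, and over 1.5-fold), while 1 of them had an unadjusted p under 0.05. Over the 10902 genes tested the same rule called 45 genes, or 0.413%, of which 11 genes, or 0.101%, were higher in *msh-1*, and 924 genes had an unadjusted p under 0.05. The median log2 fold change (*msh-1* minus WT) was -0.08 over the 5 tested genes and -0.01 over all genes tested.

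**Figure D1:**
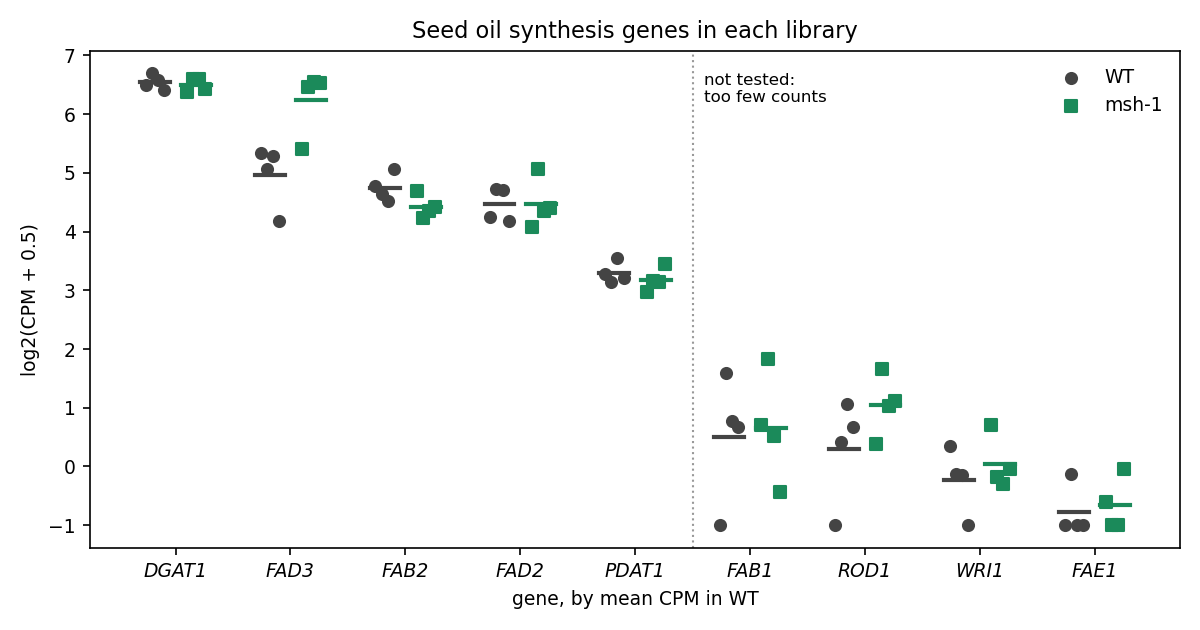
Level of each seed oil synthesis gene in each library, as log2(CPM + 0.5), for WT (grey circles) and *msh-1* (green squares), with a bar at the mean of 4 libraries. *FAD3* is the gene whose *msh-1* libraries all lie above its WT libraries, and the 4 genes right of the dotted line had too few counts to be tested.

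The levels spanned a wide range, and since 3'RNA-seq counts 1 end of each polyadenylated transcript whatever its length, levels of different genes could be set side by side without correction for length. In WT, *DGAT1* was the highest at 93.1 ± 8.03 CPM (mean ± SD, n = 4 as for all such means below), and its lowest library lay above the highest library of every other gene. *FAD3*, *FAB2* and *FAD2* followed at 32.3 ± 10.3, 26.6 ± 4.56 and 21.9 ± 4.50 CPM, and the ranges of neighbours in this order overlapped. *PDAT1* stood below them at 9.39 ± 1.26 CPM, apart from its neighbours on both sides. In *msh-1*, *DGAT1* and *FAD3* again came first and second, but here the ranges of *DGAT1* (89.9 ± 7.12 CPM) and *FAD3* (78.4 ± 24.3 CPM) overlapped, while *FAD3* was separated from *FAD2* and *FAB2* below it. *FAD2* and *FAB2* changed places in the order, as did *FAB1* and *ROD1*, and in both genotypes the ranges of each of these pairs overlapped.

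*WRI1* (chr3:20114488-20118745 in the TAIR10.1 assembly, plus strand) had counts of 1, 1, 1 and 0 in WT (replicates 1 to 4, the order used throughout) and of 7, 1, 1 and 2 in *msh-1*. The highest of these came from the deepest library, and the genotypes overlapped in CPM (exact two-sided permutation test, p = 0.486). A count of 3 in a library, taken as the floor, is worth between 0.481 and 3.29 CPM depending on its depth, so neither a difference nor its absence was detectable for *WRI1* at this depth. A fit of all genes without a filter on low counts gave *WRI1* a log2 fold change of 0.61 with a standard error of 0.97 (edgeR, adjusted p = 0.864).

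In the plastid, the ketoacyl-ACP synthase gene *FAB1* (chr1:28151920-28156350, minus strand) had counts of 0, 6, 3 and 1 in WT and of 7, 8, 3 and 1 in *msh-1*. Its group means of 1.20 ± 1.03 and 1.34 ± 1.21 CPM differed by less than the spread between libraries (exact permutation test, p = 0.829). *FAB2* (chr2:18119873-18122889, plus strand) was better covered, with 27.0, 24.3, 22.4 and 32.9 CPM in WT replicates 1 to 4 and 25.2, 18.4, 19.8 and 20.8 CPM in *msh-1* replicates 1 to 4. 3 *msh-1* libraries were below all WT libraries, and *msh-1* replicate 1 lay inside the WT range. The log2 fold change of *FAB2* was -0.26 (SE 0.15, 95% interval -0.59 to 0.07, edgeR adjusted p = 0.718). The exact permutation test gave p = 0.0857, where 0.0286 is the smallest p that 4 against 4 libraries allow. Without WT replicate 4 and *msh-1* replicate 1, *FAB2* had 24.5 ± 2.29 CPM in WT against 19.7 ± 1.24 in *msh-1* (mean ± SD, n = 3). The log2 fold change was then -0.28 (edgeR adjusted p = 0.483), and the libraries left out had been set apart in these same data.

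*FAD2* and *FAD3* encode related membrane desaturases of consecutive steps. Their reference proteins, translated from RefSeq coding sequence, have 383 and 386 residues, and 140 of 366 aligned residues (38.3%) were identical. The histidine motif of membrane desaturases, a histidine followed by any 2 residues and a pair of histidines, occurs 2 times in each. The genes differ in structure, since the coding sequence of *FAD2* (chr3:3860251-3863250, minus strand) lies in 1 exon and that of *FAD3* (chr2:12781524-12785190, minus strand) in 8 exons. In the TAIR10.1 annotation no other gene overlaps any of the 9.

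The 250 bases upstream of the annotated start of both genes are shown because FAD2 makes the substrate of FAD3 while their transcripts stood apart in *msh-1*. They come from the RefSeq TAIR10.1 assembly, chr2:12785191-12785440 for *FAD3* and chr3:3863251-3863500 for *FAD2*, both read 5' to 3' on the minus strand. Capitals mark ACGTG, the core of elements bound by bZIP factors of ABA signalling.
FAD3 upstream: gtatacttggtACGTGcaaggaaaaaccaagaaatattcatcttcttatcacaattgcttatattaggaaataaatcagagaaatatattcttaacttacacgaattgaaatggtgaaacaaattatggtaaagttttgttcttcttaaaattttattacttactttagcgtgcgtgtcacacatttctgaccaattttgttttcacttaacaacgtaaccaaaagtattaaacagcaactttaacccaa
FAD2 upstream: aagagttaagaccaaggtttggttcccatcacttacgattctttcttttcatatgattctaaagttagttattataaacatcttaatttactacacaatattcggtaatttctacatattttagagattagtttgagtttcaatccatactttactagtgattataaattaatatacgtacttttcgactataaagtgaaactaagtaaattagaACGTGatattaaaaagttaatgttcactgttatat

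Each upstream region held the ACGTG core 1 time, in *FAD3* starting 239 bases and in *FAD2* 35 bases before the annotated start. Windows from 250 bases before to 50 bases after the start were searched on both strands for all nuclear protein-coding genes, and ACGTG was found in 2 of the 9 oil genes, against 7333 of 27444 windows (26.7%) overall. The G-box CACGTG, which contains that core, was in 0 of the 9 (7.68% overall). The AW-box bound by WRI1, spelled CNTNGNNNNNNNCG, was in 0 of the 9, in 11 of 69 other genes of the pathway (15.9%) and in 11.9% of all windows. The RY element CATGCA, bound by B3 factors of seed maturation, was in *FAE1*, *PDAT1* and *ROD1* (9.72% overall). A match here is a string of letters and not a binding site.

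*FAD2* was measured at 18.5, 25.9, 25.6 and 17.5 CPM in WT replicates 1 to 4 and at 16.4, 32.9, 19.8 and 20.6 CPM in *msh-1* replicates 1 to 4. The genotypes overlapped, and *msh-1* replicates 1 and 2 were the lowest and the highest of all 8 libraries. The log2 fold change was -0.08 (SE 0.22, 95% interval -0.54 to 0.39, edgeR adjusted p = 0.98), and its sign turned positive when *msh-1* replicate 1 was left out (0.05).

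*FAD3* was measured at 40.0, 33.1, 38.4 and 17.5 CPM in WT replicates 1 to 4, from 52, 79, 96 and 16 counts. In *msh-1* replicates 1 to 4 it was at 42.0, 87.6, 92.5 and 91.4 CPM, from 262, 229, 299 and 386 counts. The genotypes did not overlap, but *msh-1* replicate 1 stood close to the highest WT library and far below the other 3 *msh-1* libraries, and WT replicate 4 stood below the other 3 WT libraries. Groups that do not overlap were found for 1 of the 5 tested oil genes and for 519 of all 10902 genes tested, or 4.76%. The log2 fold change of *FAD3* was 1.20 (SE 0.25, 95% interval 0.66 to 1.75), or 2.30-fold (1.58 to 3.36). Its edgeR p was 0.000327 (rank 54 of 10902) and its adjusted p 0.0654, short of the threshold, and the exact permutation test gave its smallest possible p of 0.0286.

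**Figure D2:**
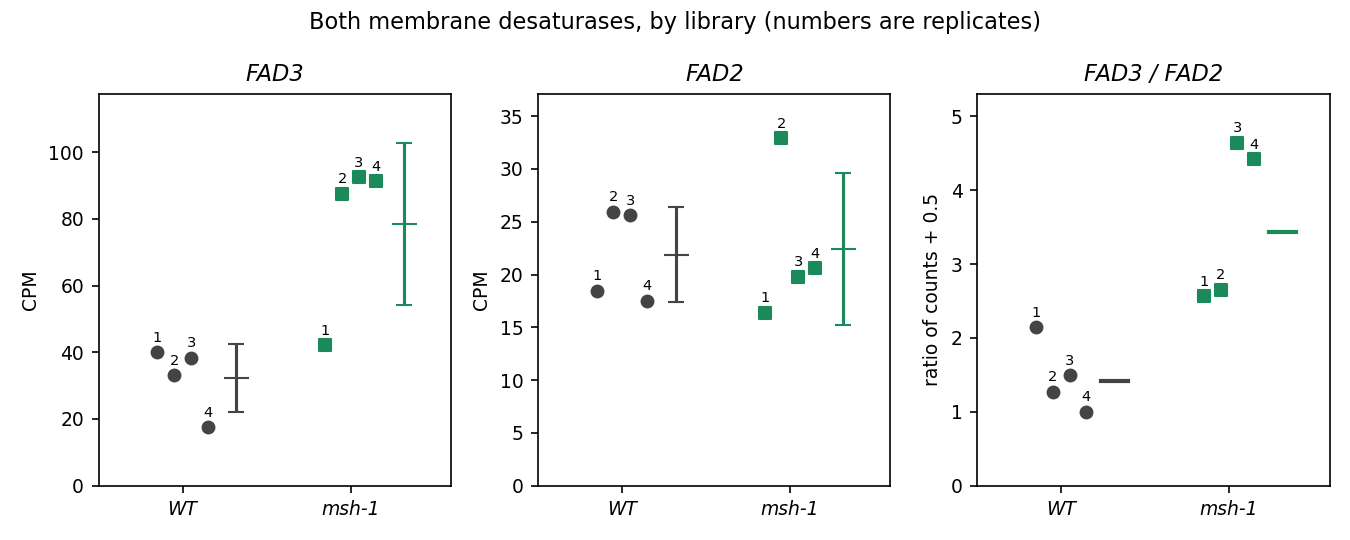
CPM of *FAD3* and *FAD2* and their ratio in each library, with the replicate number above each point. Crosses with bars are mean ± SD of 4 libraries and the bars of the ratio are geometric means. *FAD3* lies at 17.5 to 40.0 CPM in WT and 42.0 to 92.5 CPM in *msh-1*, *FAD2* overlaps between genotypes, and the ratio is at most 2.14 in WT and at least 2.56 in *msh-1*.

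The edgeR call for *FAD3* depended on which libraries entered. Without *msh-1* replicate 1 the log2 fold change was 1.43 and the edgeR adjusted p 3.42e-05, in a fit that called 1.86% of 11278 genes. Without WT replicate 4 as well, 3 libraries a genotype, *FAD3* had 37.2 ± 3.66 CPM in WT against 90.5 ± 2.57 in *msh-1* (mean ± SD, n = 3), a log2 fold change of 1.3 with an edgeR adjusted p of 1.55e-07. That fit ranked *FAD3* in place 7 and called 280 of 11088 genes (2.53%), and *FAD3* was the only one of the 9 genes it called. Both libraries were set apart in these same data. Leaving them out lowered the SD of *FAD3* from 24.3 to 2.57 CPM in *msh-1* and from 10.3 to 3.66 CPM in WT. The adjusted p of both fits is therefore not independent support for the difference. With all 8 libraries, *FAD3* was also called by DESeq2 (1.25, adjusted p = 0.00255, 0.440% of genes called), with upper-quartile factors in edgeR (1.22, adjusted p = 0.0479, 0.459% called) and without a filter on low counts (1.23, adjusted p = 4.52e-17, 1.90% called). The fit without a filter had an SE of 0.135, against 0.254 in the main fit. Over 16 alternatives the log2 fold change stayed between 1.07 and 1.43 and the adjusted p ran from 4.52e-17 to 0.314. It was under 0.05 in 5 of the 16. *FAD3* was not called by limma-voom (adjusted p = 0.266). In edgeR it was not called with at least 10 counts in every library (adjusted p = 0.117), DESeq2 size factors (0.0710) or the replicate block (0.107). Leaving out any 1 library other than *msh-1* replicate 1 gave edgeR adjusted p from 0.0616 to 0.314, with 0.0693 for WT replicate 4.

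In each genotype, the library with the lowest *FAD3* also had the lowest sums of green tissue and of silique wall markers. Between genotypes, *msh-1* replicate 1 had 42.0 CPM of *FAD3* at a green tissue sum of 46.7 CPM. WT replicate 1 had a close *FAD3* level, 40.0 CPM, at a sum of 134.8 CPM. The summed level of 10 green tissue markers (small subunits of Rubisco, light-harvesting proteins, Rubisco activase and a photosystem subunit) was 134.8, 110.5, 120.5 and 21.9 CPM in WT replicates 1 to 4 and 46.7, 158.7, 150.9 and 156.5 CPM in *msh-1* replicates 1 to 4. 8 of the 10 markers were tested, and 0 were called, with 4 at an unadjusted p under 0.05 in edgeR. These 4 did not share a direction, since the log2 fold changes were 2.26 for *RBCS3B*, 1.83 for *LHCB1.1* and 1.38 for *LHCB1.3* but -1.68 for *RCA*, and over the 8 tested markers 5 were positive and 3 negative. Without WT replicate 4 and *msh-1* replicate 1 the sums ran from 110.5 to 134.8 CPM in WT and from 150.9 to 158.7 CPM in *msh-1*, beside *FAD3* at 33.1 to 40.0 and 87.6 to 92.5 CPM. The 6 silique wall markers, of which 1 passed the filter on low counts, summed to 23.1, 17.6, 16.8 and 5.48 CPM in WT replicates 1 to 4. In *msh-1* replicates 1 to 4 they summed to 7.54, 14.5, 13.3 and 11.8 CPM. Without the same libraries, these sums were lower in every *msh-1* library than in every WT library, the reverse of the green tissue sums. The part of green tissue or silique wall RNA in the *FAD3* difference was not tested.

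**Figure D3:**
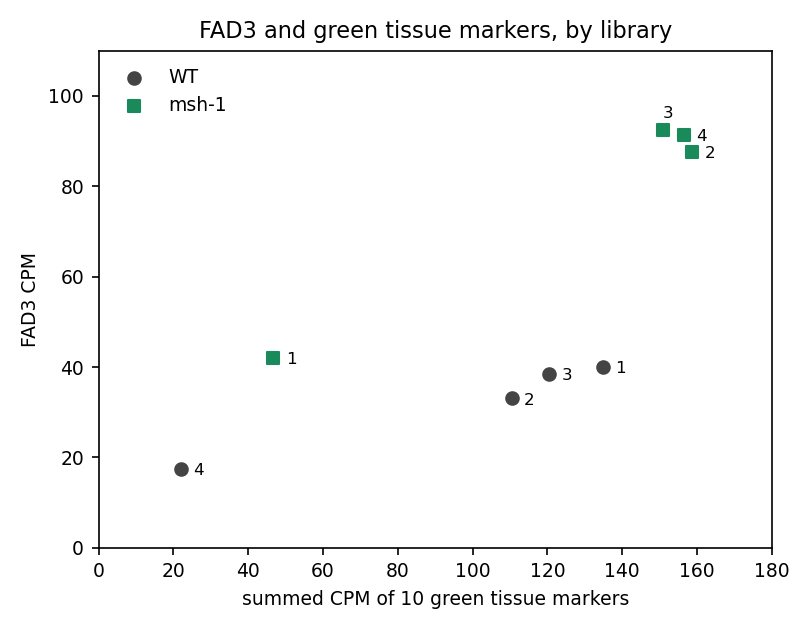
CPM of *FAD3* against the summed CPM of 10 green tissue markers in each of 8 libraries, with replicate numbers beside the points. WT replicate 4 and *msh-1* replicate 1 have the lowest marker sums of their genotype (21.9 and 46.7 CPM) and the lowest *FAD3* of it. *FAD3* is at 42.0 CPM in *msh-1* replicate 1 and at 40.0 CPM in WT replicate 1, whose marker sum is 134.8 CPM.

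A ratio of 2 genes within a library does not depend on how libraries are scaled, and 4 such ratios were compared on counts + 0.5. The *FAD3* to *FAD2* ratio was 2.14, 1.27, 1.5 and 1.00 in WT replicates 1 to 4 and 2.56, 2.65, 4.64 and 4.42 in *msh-1* replicates 1 to 4. Every *msh-1* library was above every WT library, by 1.27 on the log2 scale or 2.42-fold between the means of the logs. The exact two-sided permutation test gave p = 0.0286, its smallest possible value, and 0.114 after Benjamini-Hochberg adjustment over the 4 ratios, so the difference did not pass. *DGAT1* to *PDAT1* differed by 0.10 on the log2 scale (exact permutation p = 0.543), *FAB1* to *FAB2* by 0.17 (p = 0.829, exact) and *FAE1* to *FAD2* by -0.65 (p = 0.343, exact), the last pair resting on 4 counts of *FAE1* in all.

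As a share of all counts of the 9 genes, *FAD3* took 21.7%, 16.6%, 19.6% and 10.7% in WT replicates 1 to 4 and 23.8%, 35.1%, 38.7% and 39.5% in *msh-1* replicates 1 to 4. The other 8 genes together amounted to 144.8 to 165.7 CPM in WT and 134.3 to 161.8 CPM in *msh-1*, ranges that overlapped.

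Of the later steps, the elongase gene *FAE1* (chr4:16494205-16495842, plus strand) had 1 count over the 4 WT libraries and 3 counts over the 4 *msh-1* libraries, so its level was under the floor in every library. *ROD1* (chr3:5350814-5353752, plus strand) had counts of 0, 2, 4 and 1 in WT and of 5, 7, 5 and 7 in *msh-1*. Its means of 0.883 ± 0.669 and 1.67 ± 0.771 CPM overlapped in range (exact permutation test, p = 0.229).

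*DGAT1* (chr2:8426117-8429853, plus strand), the enzyme that acylates diacylglycerol from acyl-CoA, was at 89.3, 102.9, 95.6 and 84.4 CPM in WT replicates 1 to 4 and at 82.2, 96.0, 95.9 and 85.5 CPM in *msh-1* replicates 1 to 4. The genotypes overlapped nearly in full. Its log2 fold change of -0.07 (SE 0.10, edgeR adjusted p = 0.909) had a 95% interval of -0.28 to 0.14, the narrowest of the 5 tested genes. *PDAT1* (chr5:4392937-4397541, plus strand), which takes the acyl chain from a phospholipid instead, was at 9.24, 8.37, 11.2 and 8.76 CPM in WT replicates 1 to 4 and at 7.38, 8.41, 8.35 and 10.4 CPM in *msh-1* replicates 1 to 4. Its interval was wider (-0.60 to 0.30, log2 fold change -0.15, SE 0.21, edgeR adjusted p = 0.906), from 68 counts in WT and 139 in *msh-1*.

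The rest of the pathway was read from 7 lists of 69 other genes, of which 29 passed the filter on low counts and 40 did not, 1 of them without a count in any library. 0 of the 29 were called by edgeR in either direction, and 1 had an unadjusted p under 0.05. Over all 10902 genes tested 0.413% were called and 924 had such a p. At that share of calls, 0 of 29 does not show that the pathway is unchanged. Of the 29 genes, 13 had a positive and 16 a negative log2 fold change, and their median was -0.02, against -0.01 over all genes tested. Across all 16 alternatives 0 of them were called. The gene with the unadjusted p under 0.05 was *PAH1*, a phosphatidate phosphatase that supplies diacylglycerol (log2 fold change -0.40, adjusted p = 0.477), named here after its values were seen.

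**Figure D4:**
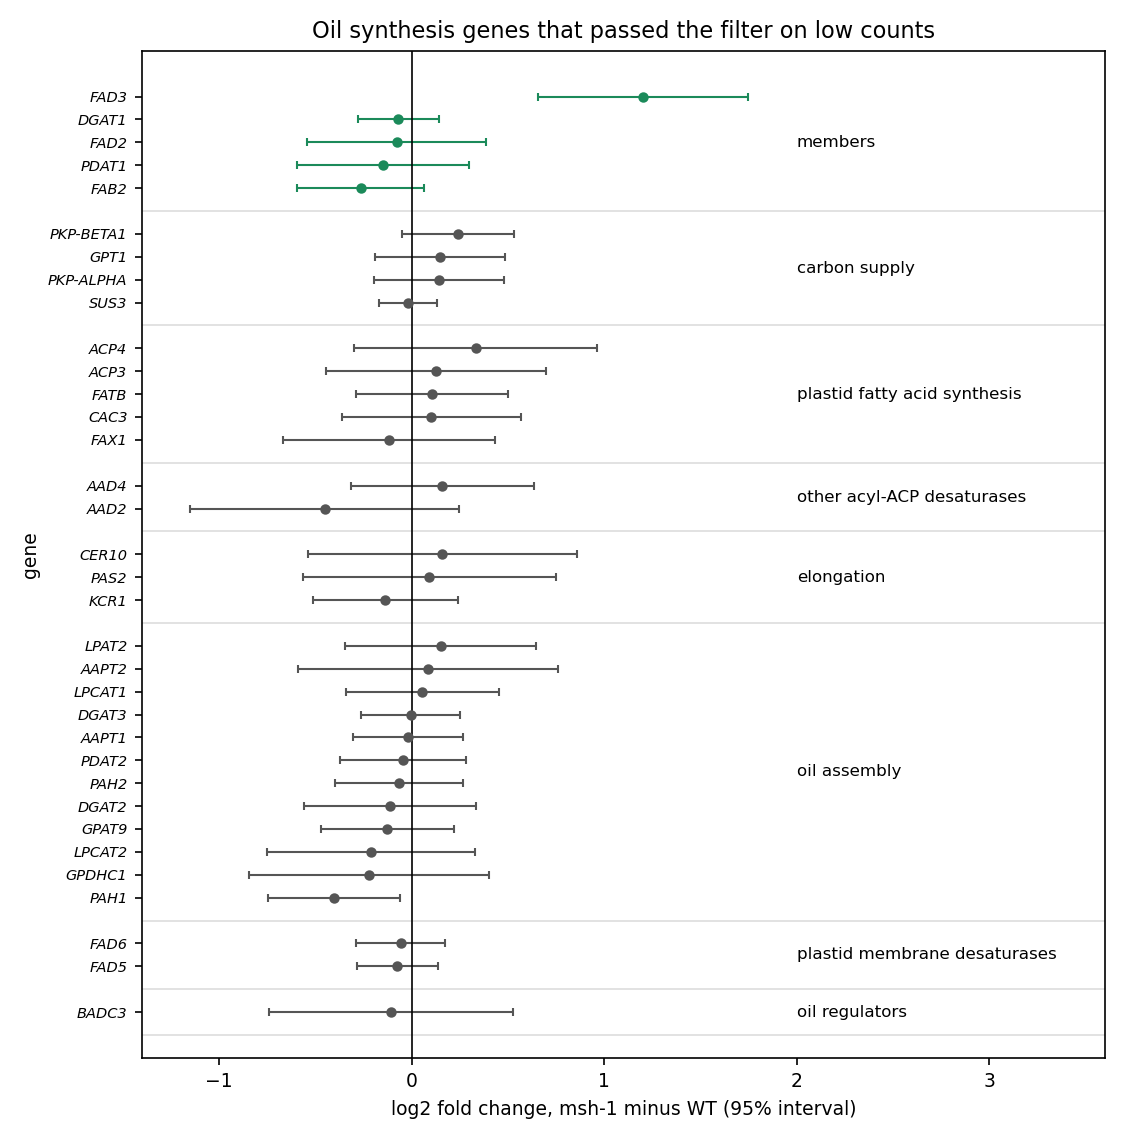
Log2 fold change (*msh-1* minus WT) with its 95% interval in the edgeR fit for the 5 oil genes (green) and 29 other genes of the pathway (grey) that passed the filter on low counts, by list. *FAD3* at 1.20 lies above all others, whose values run from -0.45 (*AAD2*) to 0.33 (*ACP4*).

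Carbon supply was represented by 4 tested genes of 12, all within -0.02 to 0.24 on the log2 scale. The most abundant were the sucrose synthase gene *SUS3* (610.7 ± 26.6 CPM in WT against 602.8 ± 27.2 in *msh-1*) and *PKP-BETA1*, a plastid pyruvate kinase subunit (26.0 ± 5.32 and 30.3 ± 1.13 CPM). Of plastid fatty acid synthesis 5 of 21 genes were tested, with *FATB*, a thioesterase that releases saturated chains, at 17.4 ± 5.53 and 19.9 ± 1.7 CPM and *CAC3*, a carboxyltransferase subunit of acetyl-CoA carboxylase, at 12.9 ± 4.04 and 13.6 ± 1.87 CPM. All 4 differences were smaller than the SD of the WT libraries.

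Among 6 other acyl-ACP desaturases, relatives of *FAB2*, 2 were tested, *AAD4* (10.3 ± 1.21 CPM in WT, 11.2 ± 2.84 CPM in *msh-1*) and *AAD2* (5.42 ± 2.43 and 3.86 ± 1.02 CPM). Of 5 membrane desaturases of the plastid 2 were tested, *FAD6*, with 51.8 ± 4.84 and 50.3 ± 4.26 CPM, and *FAD5*, with 51.5 ± 3.56 and 48.4 ± 2.37 CPM. *FAD4*, *FAD7* (19 counts in WT, 23 in *msh-1*) and *FAD8* (2 and 3 counts) did not pass the filter on low counts. Of elongation 3 of 6 genes were tested, with the reductase gene *KCR1* at 14.7 ± 1.28 and 13.4 ± 2.40 CPM and the dehydratase gene *PAS2* at 7.91 ± 3.52 and 8.12 ± 1.08 CPM.

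All 12 listed genes of oil assembly were tested, with fold changes from -0.40 to 0.15 on the log2 scale. *DGAT3*, a soluble acyltransferase, had a level of 99.6 ± 20.0 CPM in WT against 98.1 ± 3.49 in *msh-1*, and *PDAT2*, a relative of *PDAT1*, at 28.5 ± 6.59 and 28.9 ± 3.55 CPM, both above *PDAT1* itself. Of 7 oil regulators 1 was tested, *BADC3*, a negative regulator of acetyl-CoA carboxylase, at 5.86 ± 2.12 and 5.59 ± 1.15 CPM. For all 13 genes named from the lists by abundance, the genotypes differed by less than the SD of the WT libraries.

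The genes whose log2(CPM + 0.5) over the 8 libraries was most like that of *FAD3* were AT3G15450, annotated as an aluminum induced protein (Pearson r = 0.994, Spearman rho = 0.952), AT4G19200, annotated as a proline-rich family protein (r = 0.988, rho = 1), and *MYB2*, a MYB transcription factor (r = 0.985, rho = 0.905). AT3G15450 was at 191.0, 182.4, 200.5 and 119.4 CPM in WT replicates 1 to 4 and at 210.7, 291.0, 317.9 and 323.1 CPM in *msh-1* replicates 1 to 4. WT replicate 4 was again the lowest, and *msh-1* replicate 1 again stood near WT. These 8 points share their libraries and scaling, and 75 genes had an r above 0.9 with *FAD3*.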

How the data were processed

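The 3'RNA-seq held 4 libraries of each genotype, which the labels call biological replicas. Their material is siliques by the labels and freshly harvested seeds by the study's text. The authors reverse transcribed total RNA with barcoded oligo(dT) primers carrying molecular identifiers, aligned reads with STAR 2.7.8a to TAIR10, demultiplexed them with BRBseqTools and deposited unnormalized whole counts of each gene. The gene annotation, strand setting and whether molecular identifiers or reads were counted are not given in the sources used here, and duplicated reads would make counting error larger than it looks.

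From these counts, CPM were computed with TMM factors, and the comparison of genotypes used edgeR 4.0.16 in R 4.3.3 (filterByExpr, quasi-likelihood test, Benjamini-Hochberg adjustment over 10902 genes, adjusted p under 0.05 and fold change above 1.5). The standard error is the absolute log2 fold change over the square root of F. For single genes and ratios an exact permutation test (two-sided) was run on logs, with a pseudocount of 0.5. Alternatives were other scaling factors, DESeq2 1.42.0, voom in limma 3.58.1, other filters, a replicate block, a pseudocount of 1, 6 libraries, and each library left out in turn. The code was tested on simulated data. Protein lengths, identity (Biopython 1.88, BLOSUM62) and motifs came from the RefSeq TAIR10.1 genome, matched to the genes by identifier only, since the counts rest on TAIR10.

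The text names the 9 genes, the called genes and 2 most abundant tested genes of each of the 7 pathway lists, and the 3 genes most like *FAD3*, the oil gene with the largest fold change. The untested membrane desaturases of the plastid are named too. Marker genes of other tissues are named where they stood apart from their summed level, after their values were seen. These genes and lists were chosen with earlier results of these data known. ChIRP-seq and ChIDP-seq were not used here.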

Additional observations from a re-analysis of the deposited data

Results flagged for a closer look

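26 groups of 4 libraries (levels of the 9 genes and the 4 ratios, in each genotype) were screened with Dixon's test for 1 library far from the other 3. 3 groups were set apart, where chance gives about 1 in 20, or 1.3 groups. That rate is for independent groups of continuous values. The ratios reuse the same genes and some counts are tied at 0, so the 2 numbers cannot be weighed against each other. *FAD3* in *msh-1* replicate 1 was at 42.0 CPM, against 87.6 to 92.5 CPM in the other 3 *msh-1* libraries, and that library was also the lowest of its genotype in green tissue markers. *FAE1* in WT replicate 2 was at 0.418 CPM, which is 1 count, against 0 counts in the other 3 WT libraries. With 3 values tied at 0, any count in the remaining library would be set apart. The log2 ratio of *DGAT1* to *PDAT1* in *msh-1* replicate 4 was 3.02, below the other 3 *msh-1* libraries.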

How the results depend on the processing

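*FAD3* kept its direction under all 16 alternatives, and its call changed under 5 of them. 1 of the 9 oil genes, *FAD3*, was called in place of 0 with upper-quartile factors (log2 fold change 1.22), with DESeq2 (1.25), without a filter on low counts (1.23) and in 6 libraries, without WT replicate 4 and *msh-1* replicate 1 (1.3). Leaving out 1 library at a time, *FAD3* had log2 fold changes from 1.07 to 1.43, the oil genes called from 0 to 1 and all genes called from 4 to 210, the highest without *msh-1* replicate 1. All genes called numbered 45, and 24 with limma-voom, 438 without a filter, 1 with at least 10 counts in every library, and 280 in 6 libraries. The cause was not tested. The stricter filter tests fewer genes, and the settings with 6 or 7 libraries hold fewer samples. With 1 library left out the calls fell in some fits (4 without WT replicate 3) and rose in others (141 without WT replicate 4). The log2 fold change of *FAD2* (-0.29 to 0.0535 with 1 library left out) changed sign without WT replicate 2 (0.01), without WT replicate 3 (0.01) and without *msh-1* replicate 1 (0.0535), and that of the *FAB1* to *FAB2* ratio (-0.41 to 0.72 with 1 library left out) with a pseudocount of 1 (-0.0536), without WT replicate 1 (-0.40) and without *msh-1* replicate 2 (-0.41).

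No clear sign was found that the replicate numbers pair the samples, which does not exclude a pairing. Same-numbered libraries deviated together with r of -0.22, 0.15, 0.06 and -0.09 for replicates 1 to 4. The highest r of these WT libraries with a differently numbered *msh-1* library was 0.19, 0.05, 0.14 and 0.40, lower than the same-number r for replicate 2 only. With the replicate block 24 genes were called in place of 45, *FAD3* had a log2 fold change of 1.21 (edgeR adjusted p = 0.107), *FAD2* of 0.00111, and no oil gene was called. *WRI1*, *FAE1*, *FAB1* and *ROD1* each had at most 24 counts over the 4 libraries of a genotype, too few for a test at this depth. Why their counts were low was not tested.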
